A study of Mus musculus with 9 samples.

Results

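The genes described here encode proteins of the centromere and the kinetochore, measured in thymic invariant natural killer T (iNKT) cells of Utx wildtype and Utx knockout mice. The set was a list of 39 genes fixed by name, and a gene was measured through a probe set annotated to it alone. In all, 38 of the 39 had such a probe set, out of 18193 genes on the array. All 38 also lay above the filter on low values, which left 14524 genes to test. Hjurp, the chaperone that places CENP-A at centromeres, was the exception, since its 5 probe sets are shared with other genes.

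RNA from sorted thymic iNKT cells, which are T cells whose near-invariant receptor sees lipids on CD1d, was hybridised to 9 microarrays. The mice were 8 to 12 weeks old. The labels give 5 Utx wildtype arrays (WT1 to WT5) and 4 Utx knockout arrays (KO1 to KO4) as biological replicates, and 3 batches. Batch 1 held WT1 and KO1, batch 2 held WT2 with KO2, KO3 and KO4, and batch 3 held WT3, WT4 and WT5. Utx, a histone H3 lysine 27 demethylase, is encoded by the X-linked gene Kdm6a, and the labels pose the question of what its loss changes in iNKT cells. How and in which cells the gene was deleted, the strain, the gate of the sort and whether animals were pooled are not given in the sources used here. For Kdm6a itself, the probe set of highest level read 9.97 ± 0.13 (log2, mean ± SD, n = 5) on wildtype and 9.94 ± 0.21 (n = 4) on knockout arrays, and since the deleted part of the gene is not given, these levels do not check the labels.

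The kinetochore is the protein assembly that ties a chromosome to spindle microtubules when a cell divides. Its foundation is chromatin holding the histone H3 variant CENP-A, on which the constitutive centromere-associated network (CCAN) sits throughout the cell cycle. During mitosis the CCAN recruits the outer kinetochore: the Mis12 complex as a linker, the Ndc80 complex as the microtubule coupler, Knl1 as the platform of the spindle checkpoint, the Ska complex, and the fibrous corona with its motors and checkpoint proteins. Messenger RNA of many of these genes is made mainly in dividing cells, whereas some parts are also present in resting cells. Below, the inner centromere stands for CENP-A and its loading factors, the CCAN and the shugoshins, and the outer kinetochore for the other complexes named here.

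Many genes of cell division are known to share short promoter elements, and the windows around the gene starts were searched for them as a description of what the members share. Windows of 300 bases, 250 before and 50 after the start, were taken from RefSeq (GRCm38.p6) for 35 of the 39 members. Nsl1, Spc24, Ska1 and Zwilch were not matched. The letters searched on both strands were TTTGAA or TTCGAA, forms of the cell cycle genes homology region (CHR) bound by the MuvB complex, CCAAT, bound by NF-Y, and TTCCCGC or TTGGCGC, forms of an E2F site. A CHR form lay in the windows of 18 of 35 members (51.4%), against 21.7% of all 27025 genes with a window. CCAAT lay in 24 (68.6%, against 41.1%), and an E2F form in 12 (34.3%, against 7.79%). The stretches below show the CHR match nearest the start for 9 members that were called higher in knockout cells, with the 6 letters of the match, or their reverse complement TTCAAA, in capitals.
Cenpa (chr5:30666890-30666919, plus strand): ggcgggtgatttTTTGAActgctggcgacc
Cenpf (chr1:189688067-189688096, minus strand): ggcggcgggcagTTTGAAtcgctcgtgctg
Spc25 (chr2:69206172-69206201, minus strand): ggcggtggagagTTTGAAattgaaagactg
Ndc80 (chr17:71526811-71526840, minus strand): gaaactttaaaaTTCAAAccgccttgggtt
Cenpn (chr8:116921719-116921748, plus strand): gccattggcggcTTCAAAagcacctcggcg
Kntc1 (chr5:123749706-123749735, plus strand): ttctcccgccaaTTCAAAtcagtggcaggg
Spdl1 (chr11:34833623-34833652, minus strand): gcgggaaccgtaTTCAAAaatccccggcgc
Cenpw (chr10:30200548-30200577, minus strand): tccggcggccaaTTCAAAtcgaccactcgg
Ska3 (chr14:57826160-57826189, minus strand): gcctgcgcaggaTTCAAAtgtgtagcgcgt
In Kntc1 and Cenpw the reverse complement begins inside the letters of a CCAAT box.

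Centromere and kinetochore genes were higher in knockout cells, and no member was called lower. By limma with batch as a factor and Benjamini-Hochberg adjustment over all 14524 genes, 24 of 38 members passed an adjusted p of 0.05 as higher, against a background of 7.88% of all genes. The fall side held 0 members, also at an unadjusted p under 0.05, against 3.37% of all genes. The 24 genes were each at least 2-fold higher (background 5.7%), with adjusted p from 0.00207 to 0.0409. The median member had a log2 difference of 1.39, or 2.63-fold, beside 0.11 for all genes tested. The fitted difference was positive for 37 of 38 members, for 36 after another quantile normalization and for 34 with arrays scaled to equal interquartile ranges. In sorted bulk RNA, more cells of a kind and more RNA per cell cannot be told apart.

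The groups rarely overlapped. For 33 of 38 members every knockout array read above every wildtype array, which held for 22.2% of all genes tested. The 5 with overlap were Cenpc1, Cenpq, Dsn1, Mis12 and Knl1. Among the 100 genes of smallest p were 8 members: Nuf2 at rank 4, Spc24 at rank 5, Spc25 at rank 9, Ndc80 at rank 15, Cenph at rank 17, Cenpp at rank 23, Kntc1 at rank 66 and Nsl1 at rank 95. By size of rise, Cenpf stood at rank 7 and Nuf2 at rank 22.

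**Figure D1:**
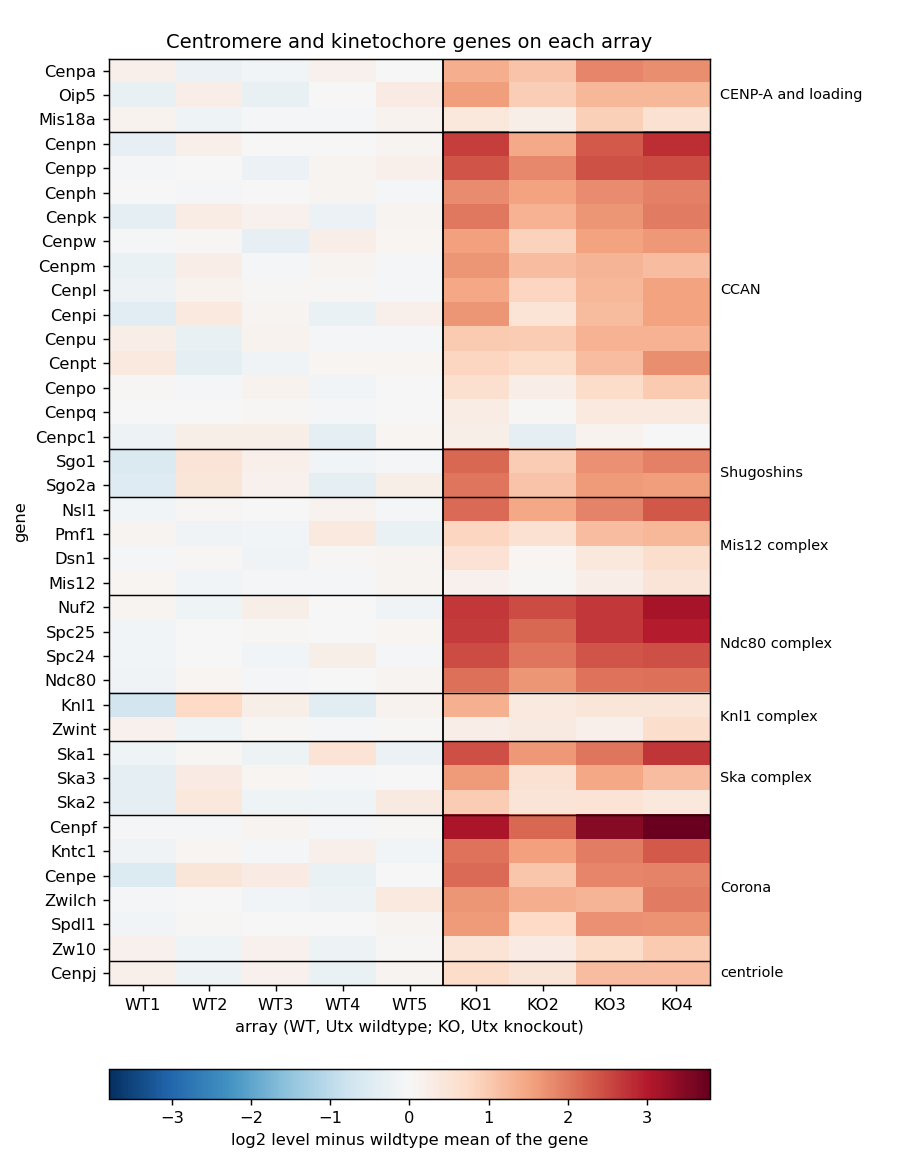
Each row is 1 of the 38 genes and each column 1 array, and the colour gives the log2 level minus the wildtype mean of that gene (red, higher; blue, lower). Rows are grouped by complex. Cenpf, Nuf2, Spc25 and Spc24 have the largest rise in mean level and are darkest on the knockout arrays, KO2 is paler than the other knockout arrays for most genes, and Cenpc1, Cenpq, Mis12 and Zwint show little colour (the differences of Cenpq, Mis12 and Zwint turn negative with arrays scaled to equal interquartile ranges, that of Mis12 also after another quantile normalization).

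Set side by side, the inner centromere had 12 of 18 members called higher and the outer kinetochore 12 of 19. Their median differences were 1.32 (2.50-fold) and 1.61 (3.06-fold) on the log2 scale. Within batch 1 the medians were 1.73 and 2.04, and within batch 2 they were 1.04 and 1.36. The spread between members was wide in each class, from -0.01 to 2.36 in the inner centromere and from 0.25 to 3.17 in the outer kinetochore. The medians are descriptions, and the difference between the classes was not tested. Medians differed more between complexes, each of fewer genes: the 4 Ndc80 complex genes had a median of 2.53, the 6 corona genes 1.68, the shugoshins 1.65, the 13 CCAN genes 1.29, the CENP-A genes 1.29, the Ska genes 1.24, the Mis12 complex 0.71 and the Knl1 complex 0.50. Members of 1 complex also spread, from 0.25 to 2.02 in the Mis12 complex and from 0.59 to 2.30 in the Ska complex. These contrasts were not tested.

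**Figure D2:**
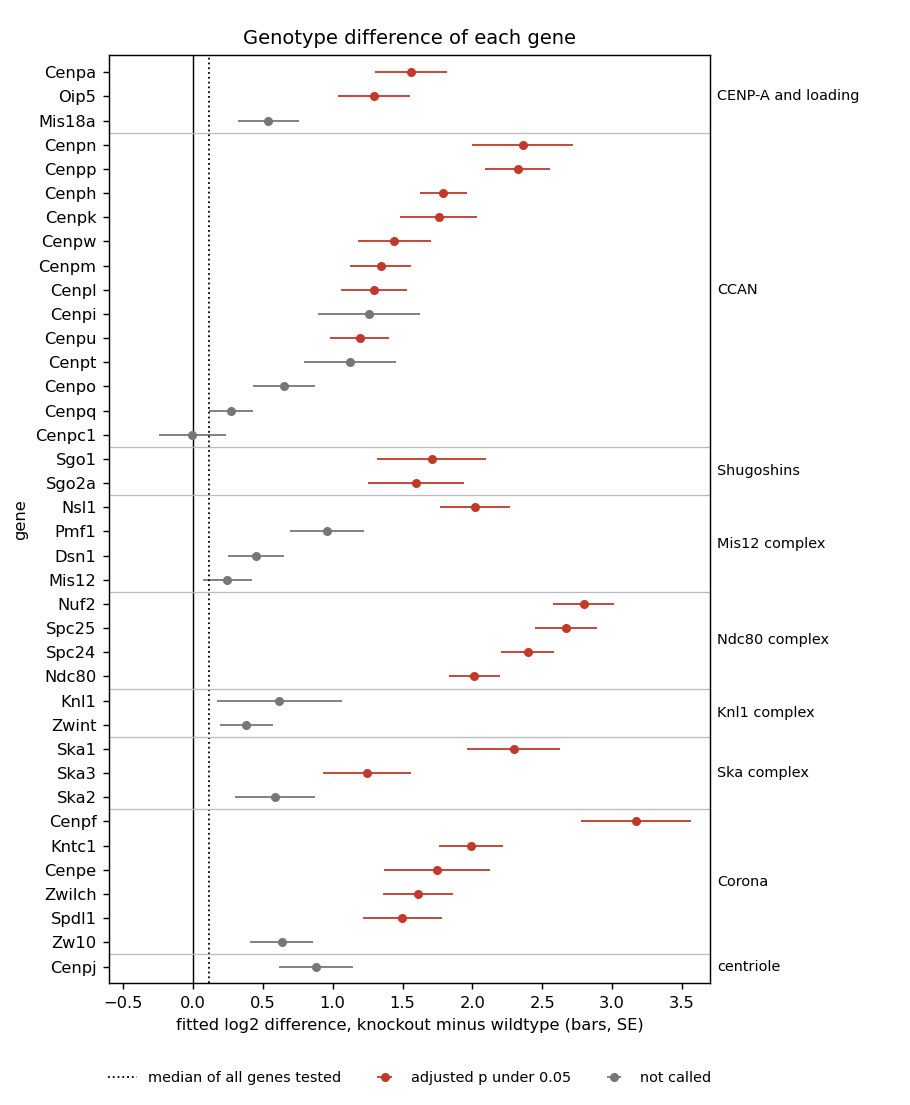
Points give the fitted log2 difference, knockout minus wildtype, of each gene and bars its SE. Red points passed an adjusted p of 0.05 by limma, grey points did not, and the dotted line marks the median of all genes tested (0.11). All 4 Ndc80 complex genes lie above 2, while Cenpc1 lies at -0.01 (its sign turns with several settings) and Mis12 at 0.25 (its sign turns under 2 other scalings).

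CENP-A marks the centromere in place of histone H3, and its gene, Cenpa, rose 2.95-fold. On the probe set used, Cenpa read 8.94, 8.52, 8.64, 8.91 and 8.73 (log2) (WT1 to WT5) against 10.14, 9.84, 10.61 and 10.51 (KO1 to KO4). The lowest knockout array thus lay 0.90 above the highest wildtype array. The log2 difference was 1.56 (SE 0.26, adjusted p = 0.00988 by limma). Without WT2 the call ended (1.20, adjusted p = 0.123). Here and below, a difference without WT2 is that of KO1 and WT1 alone, since batch 2 then holds no wildtype array. Other Cenpa probe sets gave 1.03 and 0.19 (adjusted p = 0.0182 and 0.678 over all one-gene probe sets), and the mean of all gave 0.93. Oip5, a subunit of the Mis18 complex that primes centromeres for new CENP-A, rose from 6.68 ± 0.28 (log2, mean ± SD, n = 5) to 7.94 ± 0.26 (n = 4), a difference of 1.29 (adjusted p = 0.0186 by limma) that ended as a call without WT1 or KO1 (0.91, adjusted p = 0.0638). Mis18a, the partner of Oip5 in that complex, read 10.37, 10.06, 10.18, 10.16 and 10.36 (WT1 to WT5) against 10.62, 10.44, 11.13 and 10.80 (KO1 to KO4). Its groups did not overlap, yet KO2 lay only slightly above WT1, and the difference of 0.54 did not pass (SE 0.22, adjusted p = 0.141 by limma). A second Mis18a probe set had 0.13 (adjusted p = 0.827 over all one-gene probe sets).

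In the CCAN, 8 of 13 genes rose, 0 fell (0 also at an unadjusted p under 0.05) and 5 did not pass the limma test. Cenpn, whose protein reads CENP-A nucleosomes, had the largest CCAN rise. It read 6.40, 6.91, 6.69, 6.69 and 6.81 (WT1 to WT5) against 9.32, 8.15, 9.04 and 9.50 (KO1 to KO4), with KO2 lowest among the knockout arrays. The difference was 2.36, or 5.14-fold (SE 0.36, adjusted p = 0.00831 by limma), and a second probe set gave 2.41. Cenpp, of the CENP-O group, followed with 2.32, or 5.01-fold (adjusted p = 0.00292), from 7.69 ± 0.17 to 9.97 ± 0.30. Other Cenpp probe sets gave 2.03 and, for the dimmest, 0.01. Of the CENP-H, CENP-I and CENP-K group, Cenph (1.79, adjusted p = 0.0026) and Cenpk (1.76, adjusted p = 0.00861) rose, and Cenpi had 1.26 (adjusted p = 0.0599). The Cenpi difference was 2.10 (adjusted p = 0.0359) without WT2, 1.46 (adjusted p = 0.0156) without KO2 and 0.71 (adjusted p = 0.225) without WT1 or KO1.

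The other CCAN genes spread from no difference to a rise of 1.44. Cenpw (1.44, adjusted p = 0.0135 by limma), a histone fold partner of CENP-T, rose, as did Cenpm (1.34), Cenpl (1.29), the partner of CENP-N, and Cenpu (1.19), of the CENP-O group. Without WT2 the calls of Cenpw (1.62, adjusted p = 0.061) and Cenpu (0.74, adjusted p = 0.198) ended. A second Cenpu probe set had 0.33 (adjusted p = 0.33 over all one-gene probe sets). Cenpt, whose protein binds DNA and recruits the Ndc80 complex, read 9.06, 8.30, 8.55, 8.74 and 8.74 (WT1 to WT5) against 9.48, 9.39, 9.86 and 10.43 (KO1 to KO4). Every knockout array was above every wildtype array, and the difference of 1.12 (SE 0.33) missed the threshold (adjusted p = 0.0636 by limma). It passed without WT1 or KO1 (1.59) and without KO2, and it was 0.42 (adjusted p = 0.792) without WT2.

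Cenpc1 encodes CENP-C, the CCAN scaffold that joins CENP-A chromatin to the Mis12 complex. It read 9.18, 9.58, 9.60, 9.03 and 9.45 (WT1 to WT5) against 9.58, 9.04, 9.50 and 9.35 (KO1 to KO4). The ranges of the groups coincided, and the fitted difference was -0.01 (SE 0.24, adjusted p = 0.99 by limma), with 0.41 in batch 1 and -0.28 in batch 2. The sign of the difference changed with the setting, and its SE leaves room for a change in either direction. Cenpq, another CENP-O group gene, also overlapped between groups, from 10.16 ± 0.04 (n = 5) to 10.43 ± 0.15 (n = 4), with a difference of 0.27 (adjusted p = 0.276) that turned to -0.15 with arrays scaled to equal interquartile ranges. Cenpo had 0.65 (adjusted p = 0.0893 by limma), which passed without KO2. The mean of all Cenpo probe sets gave 0.31 (adjusted p = 0.158).

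The shugoshins guard centromeric cohesin until sister chromatids separate, and the genes Sgo1 and Sgo2a both rose. Sgo1 read 8.08, 9.14, 8.83, 8.52 and 8.60 (WT1 to WT5) against 10.81, 9.60, 10.37 and 10.54 (KO1 to KO4). WT1 was the lowest wildtype array and KO1 the highest knockout array, so the difference was 2.72 in batch 1 and 1.03 in batch 2. The fitted value was 1.71, or 3.27-fold (SE 0.39, adjusted p = 0.0294 by limma), and the call ended without WT1, WT4, WT5, KO1, KO3 or KO4 (highest adjusted p = 0.0893). Sgo2a read 8.03, 8.97, 8.68, 8.17 and 8.73 (WT1 to WT5) against 10.56, 9.61, 10.12 and 10.10 (KO1 to KO4). It had the same order of WT1, WT2 and KO1, with a difference of 1.60 (SE 0.35, adjusted p = 0.0255), which ended as a call without WT1, KO1 or KO3 (highest adjusted p = 0.0722).

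The Ndc80 complex, a rod of 4 proteins that grips microtubules, rose as a whole. Nuf2 read 7.61, 7.34, 7.73, 7.49 and 7.39 (WT1 to WT5) against 10.19, 10.00, 10.20 and 10.65 (KO1 to KO4). Its difference of 2.80 was a 6.95-fold rise (SE 0.22, adjusted p = 0.00207 by limma). Ndc80 read 7.22, 7.42, 7.31, 7.35 and 7.47 (WT1 to WT5) against 9.44, 9.02, 9.42 and 9.44 (KO1 to KO4). Its arrays were tightly grouped apart from KO2, and it rose 4.04-fold (log2 difference 2.01, SE 0.18, adjusted p = 0.0024). Spc25 (2.67, 6.37-fold) and Spc24 (2.40, 5.26-fold), the pair that docks the rod to the inner parts of the kinetochore, rose as well (adjusted p = 0.00222 and 0.00207). A dimmer Spc25 probe set had 0.71 (adjusted p = 0.0705 over all one-gene probe sets), and the mean of both gave 1.69. Each of the 4 genes kept its call in all 9 fits that left out 1 array, and their differences were 2.22 to 2.78 in batch 1 and 1.88 to 2.94 in batch 2.

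Of the Mis12 complex, the linker on which the Ndc80 rod docks, 1 of 4 genes passed. Nsl1 read 7.06, 7.20, 7.15, 7.30 and 7.10 (WT1 to WT5) against 9.31, 8.64, 9.03 and 9.53 (KO1 to KO4). It rose 4.06-fold (log2 difference 2.02, SE 0.25, adjusted p = 0.00409 by limma), while another Nsl1 probe set of low level (mean 4.43, under the filter of 4.54) had -0.99 (adjusted p = 0.113 over all one-gene probe sets). With the mean of both Nsl1 probe sets the call ended (0.52, adjusted p = 0.146). Mis12 read 9.32, 9.14, 9.20, 9.18 and 9.33 (WT1 to WT5) against 9.41, 9.28, 9.48 and 9.72 (KO1 to KO4). The groups overlapped, and the difference was 0.25 (SE 0.17, adjusted p = 0.364), turning to -0.04 after another quantile normalization and to -0.07 with equal interquartile ranges. Dsn1 had 0.45 (adjusted p = 0.169). Pmf1 had 0.96 (adjusted p = 0.051), passed without KO2, and passed on its other probe set (1.24, adjusted p = 0.0421 over all one-gene probe sets).

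**Figure D3:**
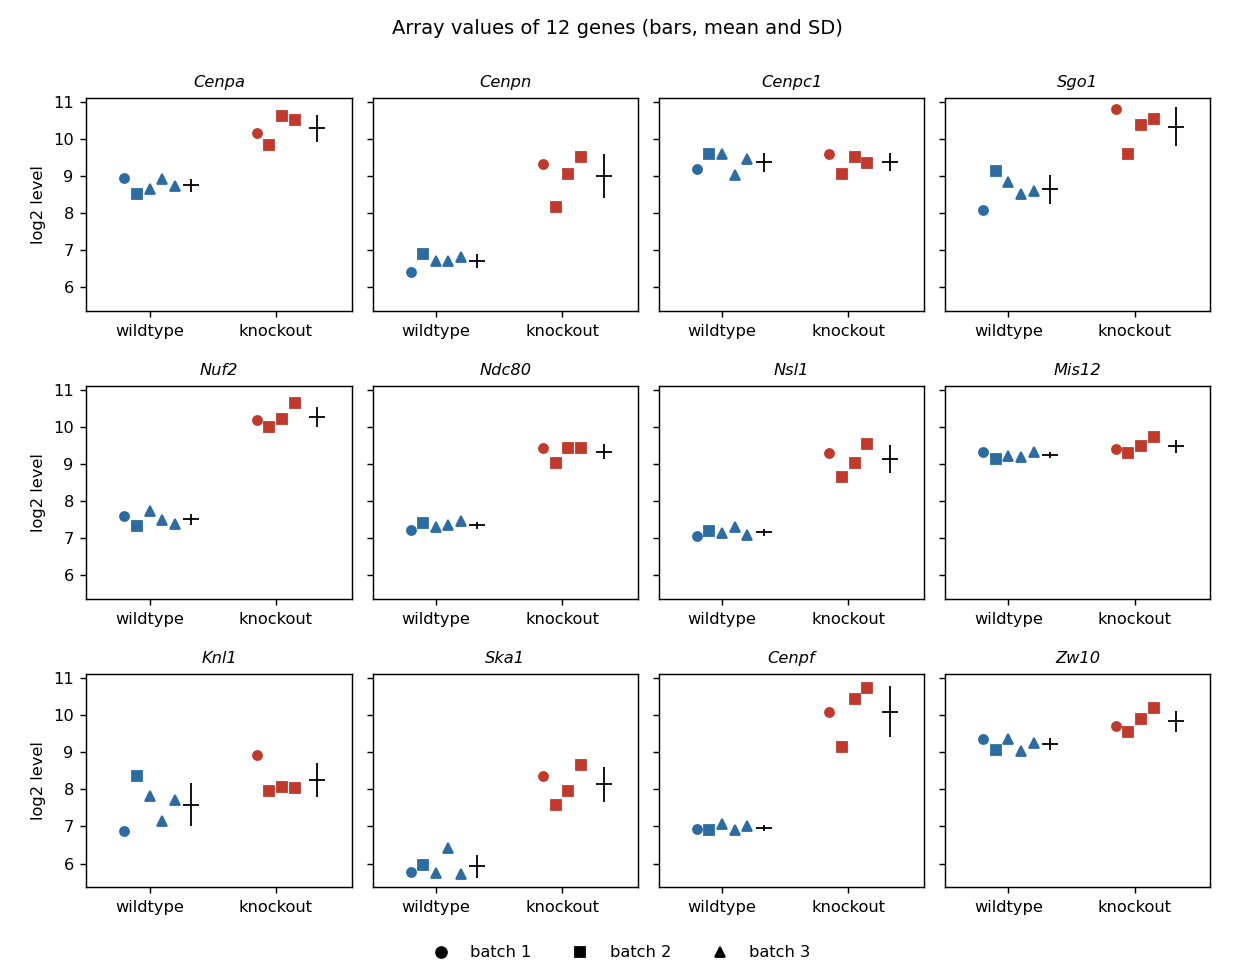
Each panel shows 1 of 12 genes, with the log2 level of every wildtype (blue) and knockout (red) array, symbols by batch, and the mean and SD of each group as a black bar. Nuf2, Ndc80, Nsl1 and Cenpf have wildtype arrays within a narrow range and knockout arrays well above it, whereas Cenpc1, Mis12 and Knl1 overlap between groups.

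Knl1, the scaffold that recruits the Bub proteins of the spindle checkpoint, varied more than any other member within wildtype. It read 6.88, 8.35, 7.82, 7.15 and 7.72 (WT1 to WT5) against 8.93, 7.95, 8.06 and 8.04 (KO1 to KO4). WT2 exceeded 3 of the 4 knockout arrays, and KO1 stood above the rest. The difference was 0.62 (SE 0.45, adjusted p = 0.378 by limma), made of 2.04 in batch 1 and -0.33 in batch 2. It was 2.04 and passed without WT2 (adjusted p = 0.0154), and it was -0.33 without WT1 or KO1. A second Knl1 probe set had 1.14 (adjusted p = 0.0751 over all one-gene probe sets). Zwint, the partner of Knl1, read 10.32, 9.99, 10.21, 10.07 and 10.20 (WT1 to WT5) against 10.41, 10.50, 10.36 and 10.82 (KO1 to KO4). KO3 lay just above WT1, and the difference of 0.38 did not pass (SE 0.19, adjusted p = 0.211) and turned to -0.03 with equal interquartile ranges. Other, dimmer Zwint probe sets had 0.92, 0.78, 0.41, 0.27, -0.35 and -0.38. None of these passed by limma over all one-gene probe sets (lowest adjusted p = 0.0645).

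The Ska complex tracks microtubule ends for the Ndc80 complex. Ska1 read 5.77, 5.96, 5.74, 6.43 and 5.71 (WT1 to WT5) against 8.36, 7.58, 7.96 and 8.64 (KO1 to KO4). The arrays were separated by more than 1 unit, and Ska1 rose 4.91-fold (log2 difference 2.30, SE 0.33, adjusted p = 0.00677 by limma). Ska3 rose less (1.24, adjusted p = 0.0409), a call that was lost when any array but WT2 and KO2 was left out (highest adjusted p = 0.143). Ska2 read 9.94, 10.72, 10.15, 10.15 and 10.66 (WT1 to WT5) against 11.30, 10.82, 10.84 and 10.73 (KO1 to KO4). KO4 lay 0.01 above WT2, and the difference of 0.59 did not pass (SE 0.29, adjusted p = 0.198), with 1.36 (adjusted p = 0.0404) without WT2 and 0.07 (adjusted p = 0.857) without WT1 or KO1. The other, dimmer Ska2 probe set had 1.76 (adjusted p = 0.0188 over all one-gene probe sets).

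The corona, the outermost layer, holds motors and the Rod, Zwilch and Zw10 complex, which brings checkpoint proteins and dynein. Cenpf, a large coiled-coil protein of the corona that binds microtubules, had the largest rise among the members. It read 6.93, 6.91, 7.06, 6.90 and 7.02 (WT1 to WT5) against 10.07, 9.13, 10.43 and 10.73 (KO1 to KO4). The wildtype arrays spanned 0.16, and KO2 lay lowest of the knockout arrays. The difference was 3.17, or 9.03-fold (SE 0.39, adjusted p = 0.00425 by limma), with 3.15 in batch 1 and 3.19 in batch 2. Another Cenpf probe set gave 1.52, and the dimmest gave 1.0, and the mean of all was 1.90.

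Cenpe, a kinesin motor that carries chromosomes to the spindle equator, read 7.48, 8.45, 8.30, 7.72 and 7.98 (WT1 to WT5) against 10.15, 9.03, 9.84 and 9.86 (KO1 to KO4). The groups were apart, with a difference of 1.75, or 3.35-fold (SE 0.38, adjusted p = 0.0259 by limma), and the call ended without WT1, KO1, KO3 or KO4 (highest adjusted p = 0.0813). Kntc1, which encodes Rod, rose by 1.99 (3.98-fold, adjusted p = 0.00363) and Zwilch by 1.61 (adjusted p = 0.00861), each in all 9 fits that left out 1 array, although the Zwilch call ended with array weights (1.56, adjusted p = 0.0559). Zw10, the remaining subunit of that complex, which also acts in membrane traffic outside mitosis, read 9.36, 9.05, 9.36, 9.03 and 9.24 (WT1 to WT5) against 9.72, 9.53, 9.90 and 10.20 (KO1 to KO4). No arrays overlapped, and the difference of 0.64 did not pass (SE 0.23, adjusted p = 0.101). Dimmer Zw10 probe sets had 0.32, 0.21 and -0.06, and the mean of all gave 0.28 (adjusted p = 0.313 by limma). Spdl1, or Spindly, the dynein adaptor of the corona, rose by 1.50 (adjusted p = 0.0157), a call that ended without WT1, WT2 or KO1 (highest adjusted p = 0.0669).

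Cenpj carries a centromere protein name, but its product, CPAP, builds centrioles. It read 9.19, 8.78, 9.14, 8.73 and 9.08 (WT1 to WT5) against 9.67, 9.47, 10.15 and 10.16 (KO1 to KO4). Each knockout array was higher than each wildtype array, and the difference of 0.88 (SE 0.27) did not pass (adjusted p = 0.0665 by limma), although it did without KO2, and was 0.48 (adjusted p = 0.682) without WT2.

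Across the 38 genes, the difference was larger where the wildtype level was lower, with r = -0.59 and Spearman's rho -0.53 between the wildtype mean and the fitted difference, which share the wildtype arrays. Levels of different probe sets are not on a common scale per transcript, so this is a description of the array values only. All called members had a wildtype mean of 8.75 or less, and 9 of the 14 not called had a higher one, such as Ska2 (10.32), Mis18a (10.23), Cenpq (10.16) and Zwint (10.16). By promoter, 13 of 20 called members with a window (65.0%) and 4 of 14 that were not called (28.6%) held a CHR form. Within 50 bases of the start, a window chosen after the positions were seen, these counts were 11 of 20 (55.0%) and 1 of 14 (7.14%, Knl1), against 6.12% of all genes. In the full windows an E2F form lay in 7 of 20 called members and 5 of 14 not called, and CCAAT in 16 of 20 and 7 of 14. Within 50 bases of the start, CCAAT lay in 13 of 20 and 4 of 14, against 15.6% of all genes. There an E2F form lay in 6 of 20 and 2 of 14, against 3.01%. The stretches before the starts of a called and an uncalled gene, Spc25 and Cenpc1, show these letters in capitals.
Spc25 (chr2:69206214-69206363, minus strand): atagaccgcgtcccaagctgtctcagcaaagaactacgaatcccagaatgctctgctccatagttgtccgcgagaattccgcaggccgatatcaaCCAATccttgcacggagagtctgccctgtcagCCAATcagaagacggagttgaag
Cenpc1 (chr5:86065584-86065733, minus strand): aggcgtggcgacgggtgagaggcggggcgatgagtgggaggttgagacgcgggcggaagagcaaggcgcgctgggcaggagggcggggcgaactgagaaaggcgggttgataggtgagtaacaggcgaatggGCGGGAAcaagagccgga
Spc25 held 2 CCAAT boxes upstream of its CHR match, and Cenpc1 had an E2F form, 1 CCAAT just after its start (not shown) and no CHR form in its window. This pair does not stand for all members. Nuf2 and Cenpp, both called higher, held none of these forms in their windows, and Mis12, not called, held CCAAT boxes. These matches are descriptions of the letters and were not tested against the expression differences.

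Within batches, 38 of 38 members were higher in batch 1 and 36 in batch 2, with 36 higher in both, beside 39% of all genes tested. The batch 1 values rest on a single array of each genotype. The exceptions in batch 2 were Knl1 (-0.33) and Cenpc1 (-0.28). The difference was larger in batch 1 for 26 members, and by more than 1 for 7: Knl1, Sgo1, Sgo2a, Cenpe, Cenpi, Ska2 and Ska3. In these 7 genes WT1 was the lowest wildtype array, WT2 the highest and KO1 the highest knockout array. Picking genes by a larger batch 1 difference itself favours this order. Cenpt went the other way, with 0.42 in batch 1 and 1.59 in batch 2. In a limma test of the batch 1 against the batch 2 difference, 0 members passed after adjustment (3 of 14524 genes did, 0.0207%), and 8 members had an unadjusted p under 0.05 against 13.3% of all genes.

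**Figure D4:**
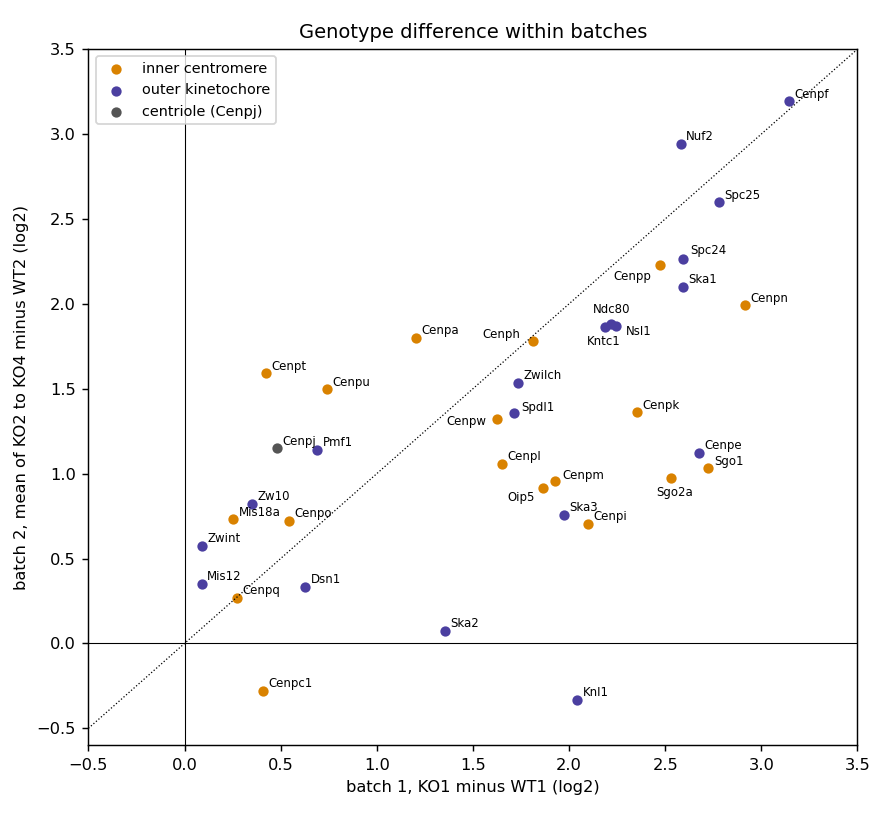
Each point is 1 gene, with the log2 difference of KO1 and WT1 in batch 1 on the horizontal axis and that of the mean of KO2 to KO4 and WT2 in batch 2 on the vertical axis. Colours give the inner centromere, the outer kinetochore and Cenpj, and the dotted line marks equal differences. Cenpf, the Ndc80 complex genes, Cenph and Cenpp lie near the line, while Knl1, Sgo1, Sgo2a, Cenpe and Ska2 lie far below it.

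KO2 was the lowest knockout array for 35 of 38 members, a count that was not made over all genes. The spindle checkpoint and proliferation genes described below also had their lowest knockout median on KO2 (0.85 and 0.79). For all genes tested the median was 0.05 on both KO1 and KO2. The median member stood 0.95 above its wildtype mean on KO2, against 1.62, 1.41 and 1.62 on KO1, KO3 and KO4. Without KO2, 29 members passed in place of 24, while the share of all genes called higher went from 7.88% to 10.4%. KO4 was the highest knockout array for 21 members and KO1 for 12.

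Of 35 other genes of the pathway, in 4 lists, 19 were called higher and 16 were not called. Of 8 spindle checkpoint genes, 5 were called higher and 0 lower (median 1.35), with Trip13 (2.20), a regulator of the checkpoint protein Mad2, Bub1b (1.84), Mad2l1 (1.08) and Bub1 (1.81) of smallest p. Of 5 genes of the chromosomal passenger complex, the Aurora B kinase complex that corrects attachments, with haspin, 4 were called higher and 0 lower (median 1.39), Aurkb itself by 1.67. Among 12 genes for regulators of kinetochore microtubules, 6 were called higher and 0 lower (median 0.61), led by the kinesin gene Kif2c (2.71) and by Spag5 (2.56). Of 10 further centromere genes, 4 were called higher and 0 lower (median 0.26): Cenpv (1.93), Cenps (1.50), Itgb3bp (0.98), which encodes CENP-R of the CENP-O group, and Nasp (0.79), a histone chaperone. Cenpb, which binds satellite DNA, had -0.25 (adjusted p = 0.414 by limma). Over all 14524 genes, 1144 were higher and 490 lower, and higher genes made up 70% of calls, 58.2% after another quantile normalization and 48.2% with equal interquartile ranges. In these fits the median over all genes was 0.11, 0.02 and -0.06.

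Markers of dividing cells and of other thymocytes differed on the same arrays. Of 19 proliferation markers 15 were called higher and 0 lower (median 1.32), among them Ccnb2 (2.16) and Mki67 (1.37). Of 10 markers of double-positive thymocytes, the immature CD4 and CD8 positive stage, 7 were called higher and 0 lower (median 1.01), with Ptcra, the pre-T cell receptor chain, at 2.17 and Cd8b1 at 1.35. Their mean level ran from 10.44 to 10.96 on wildtype and from 11.47 to 12.03 on knockout arrays. None of these markers was below the filter on low values, and KO2 was again lowest of the knockout arrays, with a median of 0.67 above the wildtype mean against 0.96 to 1.30. For macrophage and dendritic cell markers 2 of 5 tested were called higher (mean level 4.50 to 5.24 on wildtype and 5.82 to 6.38 on knockout arrays, with Itgam and Cd14 under the filter), and for B cell markers 2 of 4 (6.47 to 6.92, and 7.27 to 8.23). The former were Csf1r (4.05, from a wildtype mean of 4.55 near the filter) and Lyz2 (1.77), the latter Cd79a (1.78) and Cd79b (1.60). Of the other B cell markers, Ms4a1 had 1.18 (adjusted p = 0.084 by limma). Pax5 had -0.17 (adjusted p = 0.597), from a wildtype mean of 4.87. The part of such cells in the differences of the centromere and kinetochore genes was not tested. Genes that define T and iNKT cells were high on all arrays (mean level of 8 genes 11.86 to 12.01 on wildtype and 11.34 to 11.60 on knockout arrays), with 3 called lower (Cd44, Il2rb and Tbx21) and 0 higher, Cd3e at -0.003 and Zbtb16, the iNKT lineage factor, at -0.22 (adjusted p = 0.51 by limma). Erythroid genes lay under the filter, 0 of 4 thymic epithelial markers were called, and 1 of 3 fibroblast markers was higher (Col1a1, 1.68).

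**Figure D5:**
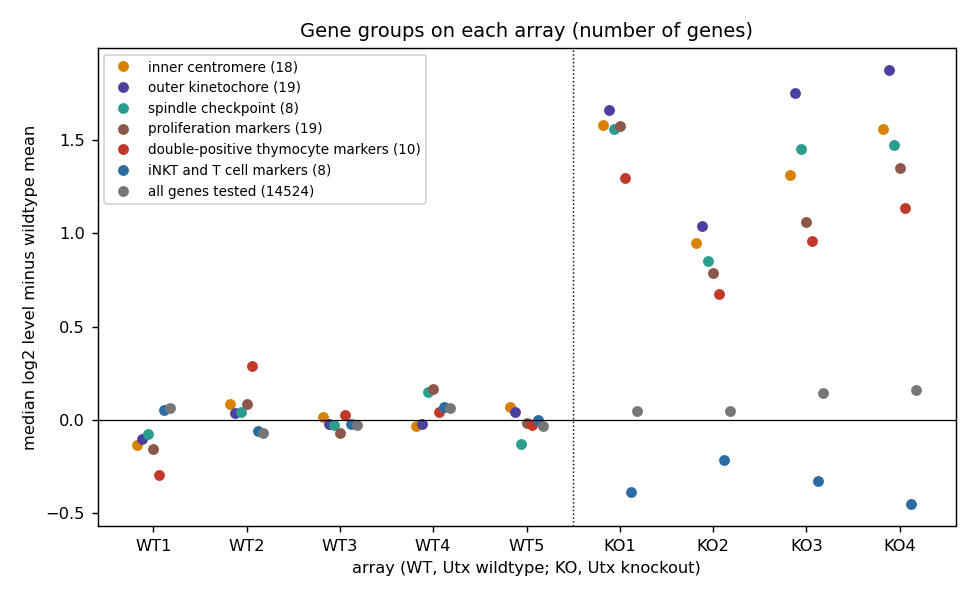
For each array the points give the median over a gene group of the log2 level minus the wildtype mean, with the number of genes in the legend. On KO1 to KO4 the inner centromere, outer kinetochore, checkpoint, proliferation and double-positive thymocyte groups lie between 0.67 and 1.88, KO2 lowest for each, while iNKT and T cell markers lie between -0.45 and -0.21.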

How the data were processed

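The authors deposited log2 values, which were computed with RMA per the submitters' processing notes (version not stated there). Of 45101 probe sets, 34945 had 1 gene in the array's annotation. For each gene the probe set of highest mean was used, and genes with a mean over a filter of 4.54 (log2), the 25th percentile over the whole array, were tested. limma (version 3.58.1, R 4.3.3; lmFit, eBayes) was fitted to all 9 arrays with genotype and batch as fixed factors, two-sided, with Benjamini-Hochberg adjustment over all genes at 0.05, and checked on simulated data. Batch 3 thus adds only to the estimate of spread.

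The median level per array was 5.97 to 6.09 and the interquartile range 3.45 to 3.84 on wildtype and 3.80 to 4.29 on knockout arrays. WT1 and KO1 deviated from their group means in opposite ways (r = -0.92 across genes), and the sources used here do not state whether values had been adjusted for batch. Arrays give no read depth, and their number limits the precision.

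The members and gene lists were chosen with earlier results of these data known. Values in each array are given for members of main role, for the largest and smallest difference in each complex and for any negative difference; of other lists, up to 4 genes of smallest p, and further list genes that are named (such as Cenpb, Mki67, Cd8b1, Cd3e, Zbtb16, Smc3 and Rad21) were chosen after their values were seen. Alternatives covered the batch term, replicate block, filter, scaling, probe set, eBayes settings, array weights, threshold and leaving out each array.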

Additional observations from a re-analysis of the deposited data

Results flagged for a closer look

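In 5 of 80 groups of arrays checked, 1 array stood apart from the others of its genotype. The rule is set at 1 in 20 for a single group. The groups share the same 9 arrays, so the count cannot be set against chance. KO2 was low for Ndc80 (9.02, next 9.42), Cenpp (9.52, next 10.08) and Spdl1 (7.63, next 8.47). KO1 was high for Knl1 (8.93, next 8.06), and WT4 was high for Cenph (7.39, next 7.28).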

How the results depend on the processing

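The count of members called higher is given with the share of all genes called higher in the same fit, which was 7.88% beside the 24 members. It was 37 (42.5% of all genes) with batch as a random block, whose estimated correlation was negative (-0.32), 35 (27.8%) with no batch term, 21 (7.17%) after another quantile normalization, 19 (8.05%) without batch 1 (chosen after seeing the data), 18 (2.81%) with array weights, 15 (1.87%) at an adjusted p of 0.01 and 13 (1.89%) without the 3 wildtype arrays of batch 3. Within batch 2 alone, whose lone wildtype array was given the spread of the knockout arrays, limma called 0 members and 0 of 14524 genes. Without 1 array the count was 19 to 29 (3.79% to 10.4%). Of the 24, 15 kept their call in all 9 such fits. Fits without WT1 and without KO1 share their differences, since batch 1 then drops out. Without WT2 the differences are those of batch 1, KO1 against WT1 alone, since batch 2 then holds no wildtype array. In no setting was a member called lower. The medians of the inner centromere (1.32) and outer kinetochore (1.61) were 1.04 and 1.36 within batch 2 and without batch 1, 1.04 to 1.73 and 1.36 to 2.04 without 1 array, and the outer median was 1.35 after quantile normalization. The outer median exceeded the inner one in each setting, but the settings share arrays and members and are not independent. Between arrays of a genotype, the inner median had an SD of 0.20 and the outer one 0.25.

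The replicate block gave 31 members (24 of them shared) and 19.4% of all genes. Same-numbered arrays deviated from their group means with r of -0.92, 0.09, 0.02 and 0.15 for numbers 1 to 4, and 2 of 8 arrays correlated best with their own number, so the numbers were not taken as pairs.

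Signs turned for Cenpc1 (0.00087 with no batch term, 0.0035 with a random block, 0.021 with the replicate block, 0.025 with array weights, -0.28 to 0.41 without 1 array), Knl1 (-0.33 within batch 2, without batch 1, WT1 or KO1), Mis12 (-0.039 after quantile normalization, -0.070 with equal interquartile ranges), and Cenpq (-0.15) and Zwint (-0.032) with the latter. The mean of all probe sets of a gene kept the calls of Cenpp (1.46), Cenpu (0.76) and Ska1 (1.40) at lower differences. The dimmest probe sets of these genes had 0.01, 0.33 and 0.27 and did not pass alone. Array weights ended the calls of Oip5, Sgo1, Sgo2a, Ska3, Cenpe and Zwilch. Another quantile normalization ended those of Sgo1, Sgo2a and Ska3 (adjusted p = 0.0507, 0.0563 and 0.0576 by limma). The causes were not tested.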

Other observations

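Of 13 genes for cohesin, the ring that holds sister chromatids together, its regulators and separase, 5 were called higher by limma and 0 lower (median 0.46). The regulators Cdca5 (sororin, 2.72), Esco2 (2.16) and Espl1 (separase, 1.90) rose by over 3-fold, the ring subunits Smc1a (0.81) and Smc3 (0.75) rose less, and Rad21 had 0.37 (adjusted p = 0.159). Of 9 genes of the DREAM and MuvB complexes, which bind CHR and E2F elements in cell cycle promoters, 3 were called higher and 1 lower (median 0.23). Rbl2, which encodes the pocket protein p130 of resting cells, fell by 1.09 on the log2 scale (adjusted p = 0.00894), while Rbl1, which encodes p107, rose by 1.03 (adjusted p = 0.0129), Lin9, a MuvB subunit, by 1.20 (adjusted p = 0.0277) and Tfdp1, the dimer partner of E2F, by 0.62 (adjusted p = 0.0357). These genes were measured on the arrays on which double-positive thymocyte markers were higher, and the part of such cells was not tested.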
